A study of Mus musculus with 16 samples.

Results

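Dystrophin, utrophin and the membrane proteins that carry them tie the actin cytoskeleton to laminin outside the cell, and a laminin-binding integrin makes a parallel link. Chromatin accessibility was described at 9 genes of these complexes: Dmd, Utrn, Dag1, Sgca, Sgcb, Sgcd, Sntb1, Itga7 and Cav3. The genes were taken by name, and their windows were the GENCODE M21 gene body with 20 kb added on each side in mm10. All ATAC-seq peaks overlapping a window were included. These are 9 of 21728 protein-coding genes, and they held 92 of the 80290 regions obtained by merging the overlapping peaks of 14 libraries.

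ATAC-seq, in which a transposase inserts adapters into open DNA, was applied to C2C12 iMyoD1, a polyclonal mouse myoblast population in which every group carried the endogenous MyoD1 gene and a doxycycline-inducible Halo-MyoD1 transgene. GM no dox and GM +dox cells stayed in growth medium with serum, and received vehicle or doxycycline for 24 h. DM no dox and DM +dox cells were serum starved for 24 h to start differentiation, with vehicle or doxycycline over the same 24 h. Seeding was 75000 cells for growth medium and 300000 for starvation, so that cell density and serum withdrawal cannot be told apart. Only part of the nuclei in an induced culture express the transgene according to the study. Each group had 4 libraries labelled as biological replicates, and replicate 1 was left out of both DM groups, as the study set it aside on quality. This leaves 14 libraries in groups of 4, 4, 3 and 3.

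Dystrophin and its paralog utrophin bind actin at one end and the transmembrane protein dystroglycan at the other, and dystroglycan binds laminin through its sugar chains. Sarcoglycans are membrane partners that stabilize the complex in muscle, syntrophins are adaptor proteins on its cytoplasmic side, and caveolin 3 is the muscle form of the caveolar coat. Utrophin is made in many cell types, whereas full-length dystrophin is mainly a product of differentiated muscle fibers.

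Each library had its own peak list, and the 14 lists ranged from 14710 to 58587 peaks. A background was recovered from the fold enrichment and p-value of each peak. The most common value in a library, which was its floor, ranged from 0.339 to 1.13 fragments per base. Between 5.52% and 42.2% of the peaks with -log10 p under 30 lay at this floor, and the others had a higher background. Because list length differed this much between libraries, values are given for the full lists and for equal-length lists that hold the 14710 strongest peaks of each library by -log10 p. In full lists a peak lay within 1 kb of a Myod1 start in all 14 libraries, where any part of the transgene's reads was not tested. Such a peak lay at Des in 13, Cdh15 in 10, Pax7 in 9, Myf5 in 6 and Myog in 0. Of the genes that mark other cell types, Ptprc, Sox10 and Alb had no such peak in any library. Pecam1 had one in 8 and Krt14 in 9, so in full lists a start peak separated muscle from other cells poorly. In equal-length lists only Myod1 (14 libraries) and Cdh15 (3) of these genes had one.

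The following 200 bp sequences around peak summits (mm10 positions, forward strand, read from the GRCm38.p6 assembly) show a Utrn intron peak that was strong in every library and a peak 2.2 kb upstream of Itga7 that was listed in 13 of 14. Capitals mark the motifs searched on both strands, CAGCTG (an E-box of the type MyoD1 binds), TGANTCA (the AP-1 site) and CATTCC (the TEAD site).
Utrn intron, chr10:12788077-12788276: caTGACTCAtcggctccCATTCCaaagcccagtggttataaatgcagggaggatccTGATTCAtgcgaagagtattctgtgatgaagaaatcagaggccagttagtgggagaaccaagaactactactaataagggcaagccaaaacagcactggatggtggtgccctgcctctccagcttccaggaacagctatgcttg
Upstream of Itga7, chr10:128931531-128931730: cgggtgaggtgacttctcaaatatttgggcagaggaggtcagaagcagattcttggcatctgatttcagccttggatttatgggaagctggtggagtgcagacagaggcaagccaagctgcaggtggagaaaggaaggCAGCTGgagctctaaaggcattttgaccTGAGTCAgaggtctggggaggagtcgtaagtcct
The Utrn sequence held 2 TGANTCA matches and 1 CATTCC, and the Itga7 sequence held 1 CAGCTG and 1 TGANTCA. A match describes the letters in the window and is not evidence of a bound factor.

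The 92 regions were spread unevenly over the 9 genes. Utrn held 25 of them, Sgcd 19, Sntb1 16, Itga7 12, Sgca 8, Dag1 7, Cav3 3, Sgcb 1 and Dmd 1. Introns of the member genes held 62 of the 92 summits, exons 7, and the remaining 23 lay outside the gene bodies. At 9 summits the start of another gene was within 1 kb and was the nearest start, such as those of Bloc1s1 and Rdh5 upstream of Itga7 and of Ppp1r9b upstream of Sgca, so these peaks cannot be assigned to the member gene by position. Peaks were present in all 14 libraries at 12 regions and in 1 library at 21. In equal-length lists 30 regions were left (of 26213), 7 of them with a peak in all 14 libraries, and Dmd, Sntb1 and Cav3 had none.

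**Figure D1:**
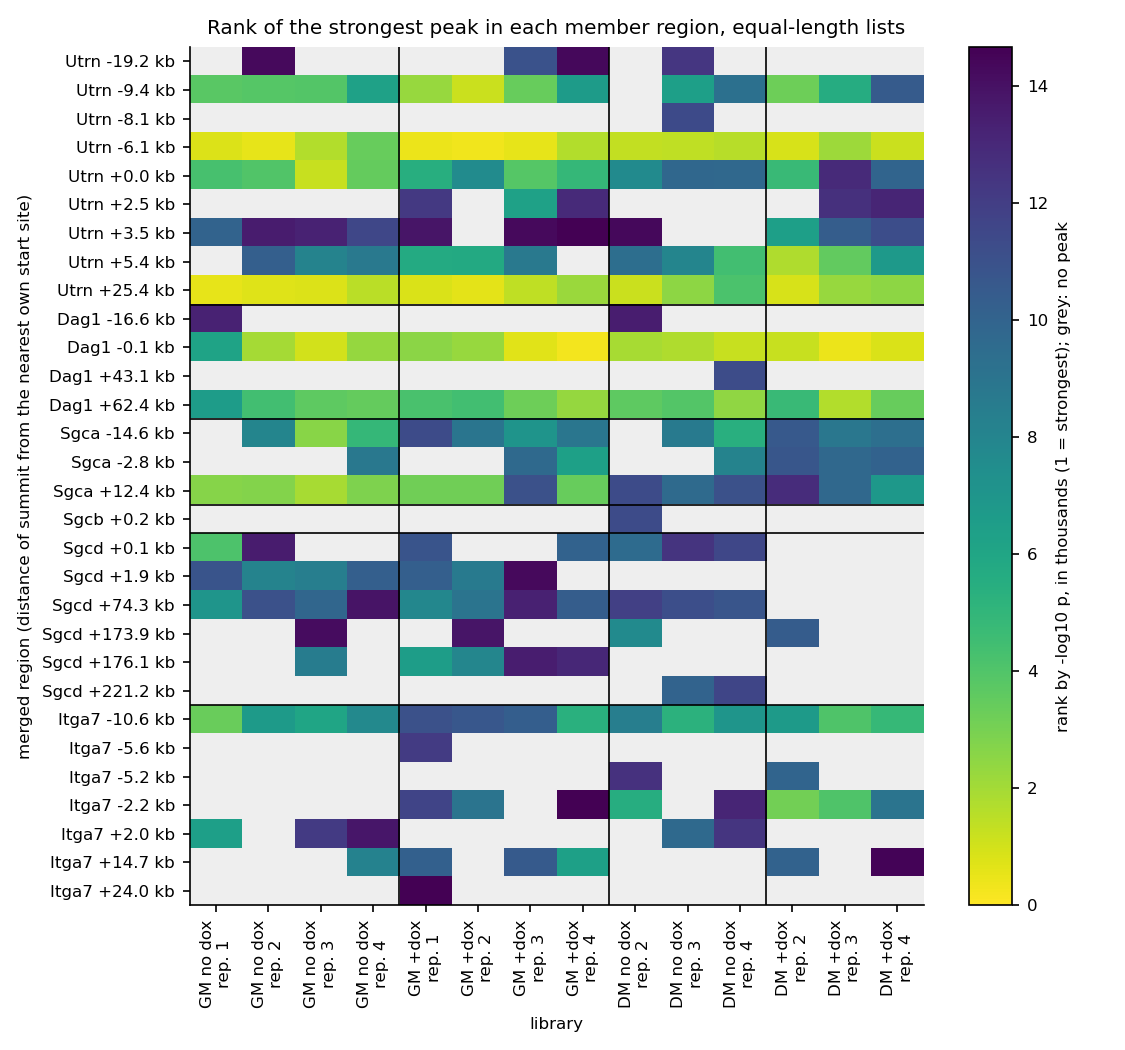
Rank of the strongest peak of each library (columns, 4 groups) in each of the 30 merged regions of the 9 windows (rows, labelled by gene and by the distance of the summit from the nearest annotated start of that gene), equal-length lists. Yellow is a high rank, dark blue a low one and grey no peak among the 14710 strongest. The Sgcd rows at +0.1, +1.9, +74.3, +176.1 and +221.2 kb are grey in all 3 DM +dox libraries, as are some rows of other genes.

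Among the cytoplasmic linkers, utrophin had the highest peak density and dystrophin next to no peaks. In full lists Utrn held a mean of 2.3 peaks per 100 kb and Sntb1 1.72, both below the median of 2.6 over all coding genes. In equal-length lists Utrn held 1.29, above the median of 0.966, and Sntb1 held 0. The Utrn promoter region at chr10:12867949-12869614 had a peak in all 14 libraries, with fold enrichment over background from 6.17 to 13.2 (median 10.1). Stronger Utrn peaks lay in introns, at chr10:12694677-12695114 (fold enrichment 10.6 to 22.7, median 18.2) and at chr10:12787881-12788396 (11.6 to 29.2, median 18.9), both in all 14 libraries. A further peak 9.4 kb upstream of Utrn was present in 13 libraries, with a median fold enrichment of 17.7. At the promoter and at both introns the groups overlapped in normalized strength in all 4 comparisons, and no difference passed the test described below.

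At Dmd, the gene of dystrophin, 1 peak was listed over a window of 2300 kb in 14 libraries. It came from 1 GM +dox library, lay in an intron 3.9 kb upstream of the start of a short transcript, and had a fold enrichment of 3.21. No library had a peak within 1 kb of the start of any of the 14 annotated Dmd transcripts. The mean density at Dmd was 0.00311 peaks per 100 kb, whereas the median over all coding genes was 2.6. Sntb1, which encodes the adaptor beta-1-syntrophin, had 1 start-site peak and 1 other exon peak, each in 1 DM no dox library, and otherwise intron peaks, with 0 to 12 peaks per library in the full lists. Its peaks were weak, and none of them was among the 14710 strongest of any library.

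Dag1, the gene of dystroglycan, had a start-site peak at chr9:108263407-108264316 in all 14 libraries. Fold enrichment there was 6.59, 19.8, 12.7 and 15.7 in GM no dox, 18.1, 20.4, 18.0 and 18.8 in GM +dox, 13.7, 13.9 and 19.1 in DM no dox and 22.4, 21.2 and 20.0 in DM +dox, as deposited. The lowest value came from the library with the shortest list (GM no dox replicate 1). After quantile normalization the values ran from 13.3 to 19.6 and the groups overlapped in all 4 comparisons. A peak of similar strength, with a median fold enrichment of 19.5, lay 3.4 kb past the 3′ end of Dag1 in all 14 libraries.

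The 3 sarcoglycan genes differed in where their peaks lay. Sgcb had a single region, 270 bp from its own start but 71 bp from that of the annotated gene Gm43799, so that position does not assign it to Sgcb. It had a peak in 13 libraries, a median fold enrichment of 10.3 and ranks that left it in the equal-length list of 1 library (DM no dox replicate 2). Sgca, whose product is specific to striated muscle, had start-site peaks at 2 of its annotated transcripts, and at least one of them was listed in 8 of 14 libraries, always outside the equal-length lists. The only Sgca region with a peak in all 14 libraries lay 4.5 kb past its 3′ end, within 536 bp of the start of the small RNA gene Gm24877, so that position does not assign it to Sgca. It had a median fold enrichment of 14.4, and a region 2.8 kb upstream of the gene had one in 13 libraries (median 15.1). Sgcd, which encodes delta-sarcoglycan and spans 1090 kb, had peaks in all 14 libraries at the start of the transcript Sgcd-201 (chr11:47379085-47379601), 1.9 kb into the following intron (chr11:47377274-47377946) and 74.3 kb downstream of that start (chr11:47304711-47305594).

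Itga7 encodes the laminin-binding integrin subunit of muscle. It lay in one of the densest windows, with 13.5 peaks per 100 kb, above 99.2% of coding genes, although some of its peaks sit at the starts of neighboring genes. In equal-length lists no library had a peak within 1 kb of any of its 5 annotated transcript starts. In full lists 9 of 14 libraries had one, with 0 of the 3 in DM no dox. The share over all genes was not computed. The region at the 5′ start of the gene, with its summit 56 bp upstream, had a peak in 4 libraries, 1 of them DM +dox. An intron region 948 bp upstream of an internal transcript start had one in 8 libraries, 3 of them DM +dox. A region 2.2 kb upstream of Itga7 had a peak in 13 libraries, with a fold enrichment of 7.41, 4.11 and 5.23 in the 3 GM no dox libraries that had it, 9.64, 10.3, 6.95 and 7.24 in GM +dox, 8.46, 5.89 and 8.17 in DM no dox and 14, 13.3 and 10.1 in DM +dox. All 3 DM +dox values were above all DM no dox values, but these are values as deposited. They also separated these groups at the Dag1 start and both strong Utrn introns, where normalized values overlapped, though not at the Utrn promoter. The share of all regions that do so was not computed. The Itga7 region, which lacked a peak in 1 library, was not tested for strength. At Cav3, the gene of caveolin 3, the start had a peak in 1 GM +dox library, and the only recurrent region (10 libraries) lay near Oxtr.

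The number of peaks over all 9 windows moved with the length of the list. In full lists it was 15, 46, 25 and 60 in GM no dox (36.5 ± 20.3, SD, n = 4), 66, 54, 58 and 43 in GM +dox (55.2 ± 9.57, n = 4), 28, 29 and 52 in DM no dox (36.3 ± 13.6, n = 3) and 63, 58 and 63 in DM +dox (61.3 ± 2.89, n = 3). As a share of each library's peaks this came to between 0.102% and 0.129%, and the groups overlapped in that share in all 4 comparisons, so the higher counts with doxycycline accompanied longer lists. In equal-length lists the groups held 16.2 ± 1.26, 18.0 ± 2.16, 16.7 ± 0.577 and 16 ± 1.0 peaks (SD, in the same order). The largest differences between compared groups, 1.75 peaks for doxycycline in GM and -2.0 for DM against GM with doxycycline, were smaller than the SD of GM +dox, and no test was made of a sum over chosen genes.

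**Figure D2:**
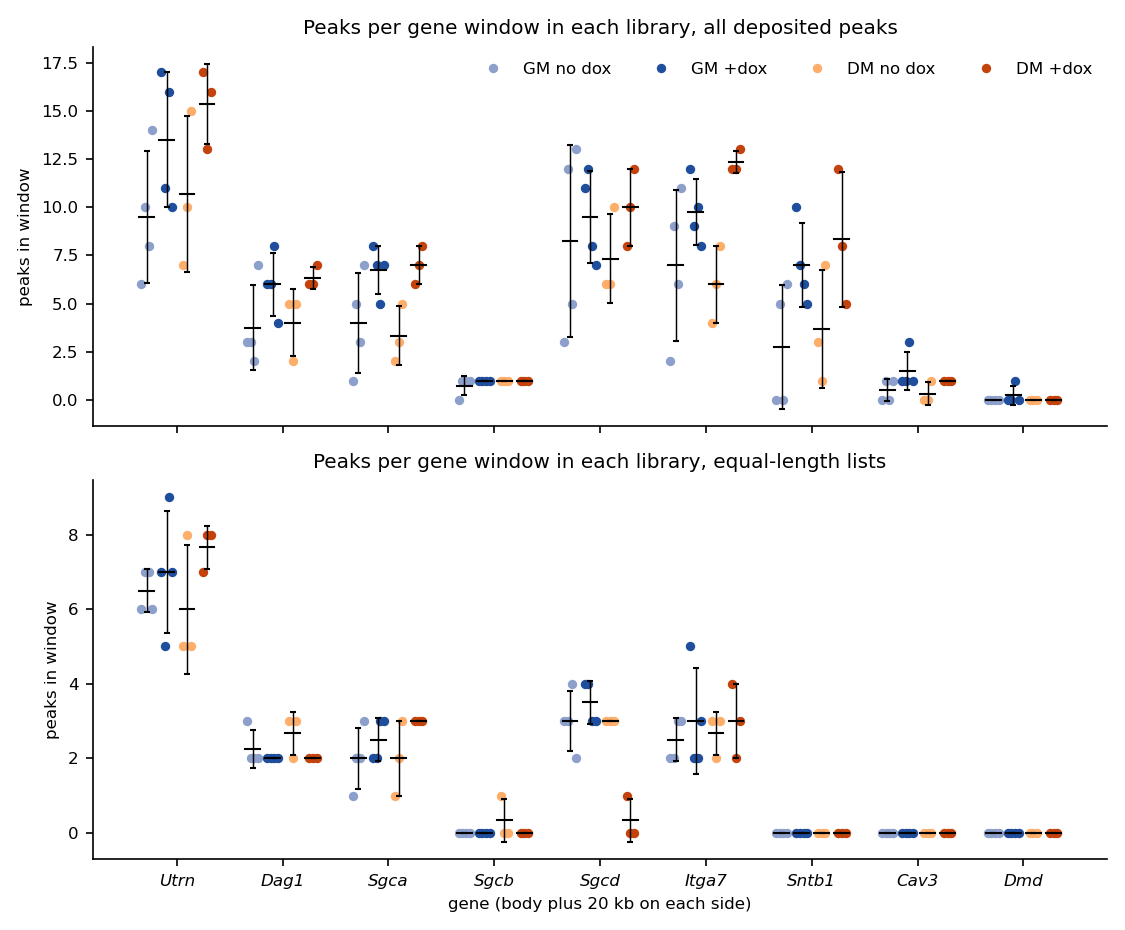
Number of peaks in the window of each gene (x axis, body plus 20 kb on each side) in each library, in full lists (top) and in equal-length lists (bottom); points are libraries, colored by group, bars the mean and whiskers the SD (n = 4 in GM, n = 3 in DM). In the lower panel only Sgcd shows a group apart from the others, DM +dox with 1, 0 and 0 peaks.

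The comparison of DM +dox with DM no dox asks what elevated MyoD1 does to accessibility during early differentiation. In full lists 3 of 8 genes with a peak had more peaks in every DM +dox library than in any DM no dox library: Itga7 (12.3 ± 0.577 against 6.0 ± 2.0 peaks), Sgca (7.0 ± 1.0 against 3.33 ± 1.53) and Dag1 (6.33 ± 0.577 against 4.0 ± 1.73). The two-sided exact permutation p was 0.1 for each, which is the smallest that 3 against 3 libraries allow, and the Benjamini-Hochberg adjusted p over 17105 genes was 0.508. The same separation held for 19.7% of all genes, and DM +dox lists held 46241 to 51340 peaks against 23690 to 40599 in DM no dox. The part of list length in these counts was not tested. In equal-length lists none of the 3 genes kept the separation.

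At the level of regions, 11 of 74 had a peak in all 3 DM +dox libraries and in no DM no dox library in full lists. The share of all regions was 5.37% in that direction and 5.39% in either, and no member region had the reverse. The window of Itga7 held 4 of the 11, Utrn 3, Sgca 2, Dag1 1 and Sntb1 1. Some lay in other genes, in an intron of Rdh5 and an exon of 9030616G12Rik in the Itga7 window. In the Sgca window they lay in an intron of Ppp1r9b and between genes, 2040 bp from a Ppp1r9b start, so position does not assign them to Sgca. All 11 were low in the lists, with DM +dox ranks from 16143 to 45305 and a fold enrichment of 2.49 to 13.9. No one of them entered an equal-length list of that group. CAGCTG was found in 2 of the 11 and TGANTCA in 5, beside 19.8% and 31.7% of all regions in full lists. Both CAGCTG matches were in introns of neighboring genes, Rdh5 and Ppp1r9b.

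Sgcd stood the other way in equal-length lists. It had 3, 3 and 3 peaks in DM no dox and 1, 0 and 0 in DM +dox, so that the groups did not overlap (3.0 ± 0.0 against 0.333 ± 0.577, two-sided exact permutation p = 0.1, adjusted p = 1 over 13902 genes). It was 1 of 6 member genes with a peak, and 2.18% of all genes separated in one direction or the other. By region, 2 of 26 were in every DM no dox list and no DM +dox list, both in Sgcd. The share of all regions was 0.787% in that direction and 1.61% in either. They were the intron region 74.3 kb downstream of the Sgcd-201 start and the start-site region itself.

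Both Sgcd peaks were present in the full lists of all DM +dox libraries, past the end of the equal-length lists. At the intron region 74.3 kb from the start the ranks in full lists were 7002, 11032, 9828 and 13902 in GM no dox, 7881, 9047, 13322 and 10318 in GM +dox, 11894, 11122 and 10811 in DM no dox and 17980, 18171 and 18043 in DM +dox. The lists differ in length, however, and as a percent of its own list the rank was 50.2, 46.0 and 26.6 in DM no dox and 35.0, 39.3 and 36.5 in DM +dox, which overlap. Fold enrichment at this region was 8.74, 8.6 and 13.7 in DM no dox and 13.2, 12.4 and 11.9 in DM +dox as deposited, which overlap, and 10.5, 11.4 and 12.5 against 9.42, 10.4 and 10.4 after normalization. The normalized log2 difference of -0.18 (SE 0.127) did not pass (limma, adjusted p = 0.812). At the start site the DM +dox ranks were 16943, 21761 and 22068, against 9541, 12473 and 11556 in DM no dox, but these too overlapped as a percent of list length. The log2 difference in strength was -0.38 (SE 0.200, limma, adjusted p = 0.754). With all deposited peaks Sgcd had 8, 10 and 12 peaks in DM +dox and 6, 6 and 10 in DM no dox (exact permutation p = 0.3), so that the direction at this gene depends on whether lists are cut to one length. In lists of the 7355 strongest peaks neither region could separate the groups, because every DM no dox rank at both was past 7355. With the 2 left-out libraries added they could not either. The left-out DM no dox replicate 1 had 1287 peaks and 0 in the Sgcd window. Without DM no dox replicate 2 the count of member regions that separated was 5 of 24. The share over all regions was not computed for that setting.

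**Figure D3:**
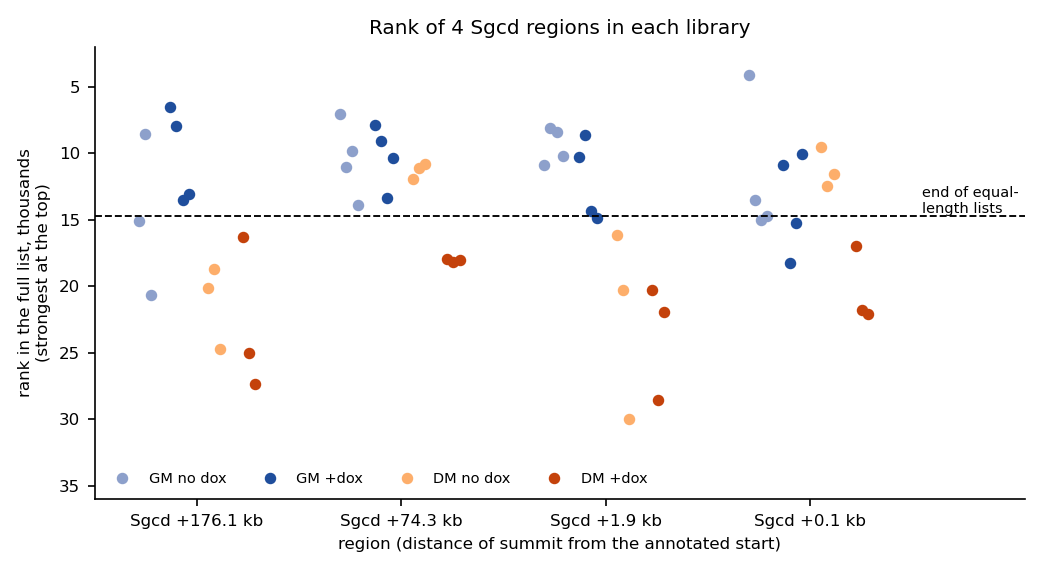
Rank by -log10 p in the full list (y axis, strongest at the top) of the peak in 4 Sgcd regions (x axis, distance of the summit from the Sgcd-201 start), one point per library, colored by group. The dashed line marks rank 14710, the end of the equal-length lists, and the DM +dox points lie below it in all 4 regions, at 17980, 18171 and 18043 in the +74.3 kb region; ranks are not scaled to list length, which differs between libraries.

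Doxycycline in growth medium was compared in 4 against 4 libraries, where the smallest two-sided exact permutation p is 0.0286. No member gene separated GM +dox from GM no dox in either kind of list, against 1.33% of all genes in full lists and 0.368% in equal-length lists. No region did either, of 81 in full lists (0.446% of all regions) and of 25 in equal-length lists (0.287%). The Sgcd intron region that set DM +dox apart had a peak in all 8 equal-length GM lists, and its normalized log2 difference in strength was 0.08 (SE 0.110, limma, adjusted p = 0.932).

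Serum starvation without doxycycline separated 1 of 27 member regions in equal-length lists, against 2.03% of all regions. This was the Sgcd intron region 1.9 kb from the start, with a peak in all 4 GM no dox lists and none of the 3 DM no dox lists. Its ranks in full lists were 10867, 8095, 8416 and 10214 in GM no dox and 16118, 20250 and 29941 in DM no dox. As a percent of each list the ranks overlapped, at 73.9, 20.4, 36.5 and 20.7 against 68.0, 83.7 and 73.7. Normalized fold enrichment there was 9.45, 10.6, 11.8 and 9.89 in GM no dox, 10.2, 10.5, 9.28 and 9.23 in GM +dox, 7.58, 7.19 and 5.66 in DM no dox and 7.79, 6.64 and 8.22 in DM +dox, so that all DM values lay below all GM values. The log2 difference without doxycycline was -0.62 (SE 0.136), or 0.649 times the GM level, and just missed the threshold (limma, adjusted p = 0.0541). With the replicate number as a block it passed (log2 difference -0.64, SE 0.135, limma, adjusted p = 0.0288). In full lists 0 of 69 regions (0.411% of all) and 0 of 8 genes (0.225%) separated, and in equal-length lists 0 of 6 genes did (2.42%). The region did not separate the groups when lists of equal length were ranked by fold enrichment. The count of separated member regions was 3 of 25 without DM no dox replicate 2 and 2 of 26 without replicate 3. The share over all regions was not computed for these settings.

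With doxycycline present, DM and GM differed in 2 of 24 member regions in equal-length lists, both in Sgcd, against 2.21% of all regions. One was the intron region at 74.3 kb, listed in 4 of 4 GM +dox and 0 of 3 DM +dox libraries. The other, at chr11:47203108-47203624 and 176.1 kb from the start, was listed likewise, with ranks of 6511, 7950, 13497 and 13042 in GM +dox and 16281, 25050 and 27380 in DM +dox. As a percent of list length these ranks overlapped (11.1 to 35.7 against 31.7 to 55.3), while those of the region at 74.3 kb did not (13.5 to 29.5 against 35.0 to 39.3). The Sgcd window held 3.5 ± 0.577 peaks in GM +dox and 0.333 ± 0.577 in DM +dox, and the exact permutation p was 0.0571 (adjusted p = 1 over 14009 genes), where 3 against 4 libraries cannot give less. It was 1 of 5 member genes with a peak, against 2.48% of all genes. Neither region could separate in lists of the 7355 strongest peaks, as GM +dox ranks at both ran past 7355. In full lists 1 of 85 regions separated (1.81% of all regions), a weak intron peak of Itga7 in the DM +dox libraries, and 0 of 9 genes (2.63%). The DM +dox libraries are shared with the previous doxycycline comparison, so the Sgcd values are not 2 independent observations.

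Peak strength could be compared directly in 11046 regions with a peak in all 14 libraries, 12 of them in the member windows. Without a replicate block, no difference in these 12 passed an adjusted p of 0.05 in limma. This held for the 4 comparisons and for the interaction of doxycycline with medium. Over all 11046 regions the calls made up 0% with doxycycline in GM, 0% with doxycycline in DM, 0.317% (35 regions) for DM against GM without doxycycline, 0.0724% (8 regions) with it, and 0% for the interaction, where unadjusted p-values under 0.05 were found in 670, 752, 1250, 848 and 277 regions. With the replicate block 0, 7, 151, 33 and 0 regions passed the adjusted p of 0.05. Of the 151, 1 was a member region, the Sgcd intron region 1.9 kb from the start (limma, adjusted p = 0.0288). Groups failed to overlap in 0 of 12 member regions with doxycycline in GM (2.41% of all regions), 5 of 12 in DM (14.3%), 2 of 12 for DM against GM without doxycycline (8.19%) and 3 of 12 with it (11.0%).

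The largest difference with doxycycline in DM was in Utrn, at an intron region 3.5 kb downstream of the Utrn-201 start (chr10:12857932-12858718). Normalized fold enrichment there was 10.3, 11.8, 10.5 and 14.1 in GM no dox, 12.4, 11.2, 11.6 and 11.3 in GM +dox, 9.36, 7.57 and 10.4 in DM no dox and 16, 13.8 and 14.7 in DM +dox. The DM +dox libraries lay above DM no dox and above GM +dox, and the 2 GM groups overlapped. The log2 difference in DM was 0.71 (SE 0.149), a ratio of 1.64, with an unadjusted p of 0.000128 and an adjusted p of 0.235 in limma (0.0653 with the replicate block). The corresponding difference in GM was 0.00 (SE 0.129), and the interaction, 0.71 (SE 0.197), had an adjusted p of 1. This region ranked 6392, 10325 and 11205 in DM +dox and 14320, 19943 and 19617 in DM no dox, or at 12.5% to 22.6% and 48.3% to 82.5% of the lists.

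In Itga7 an intron region 2.0 kb downstream of an Itga7 start went the other way. Normalized fold enrichment was 6.36, 10.2 and 8.01 in DM no dox and 4.3, 5.04 and 6.29 in DM +dox, a log2 difference of -0.64 (SE 0.196, limma, adjusted p = 0.577, and 0.0943 with the replicate block). The 2 groups did not overlap, though the nearest values of 6.36 and 6.29 were close. At the region past the 3′ end of Sgca, next to Gm24877, the log2 difference was -0.44 (SE 0.150) for DM against GM without doxycycline (limma, adjusted p = 0.245). The 2 tested peaks of Dag1 and the 2 strong Utrn intron peaks had log2 differences between -0.15 and 0.17 in all 4 comparisons.

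**Figure D4:**
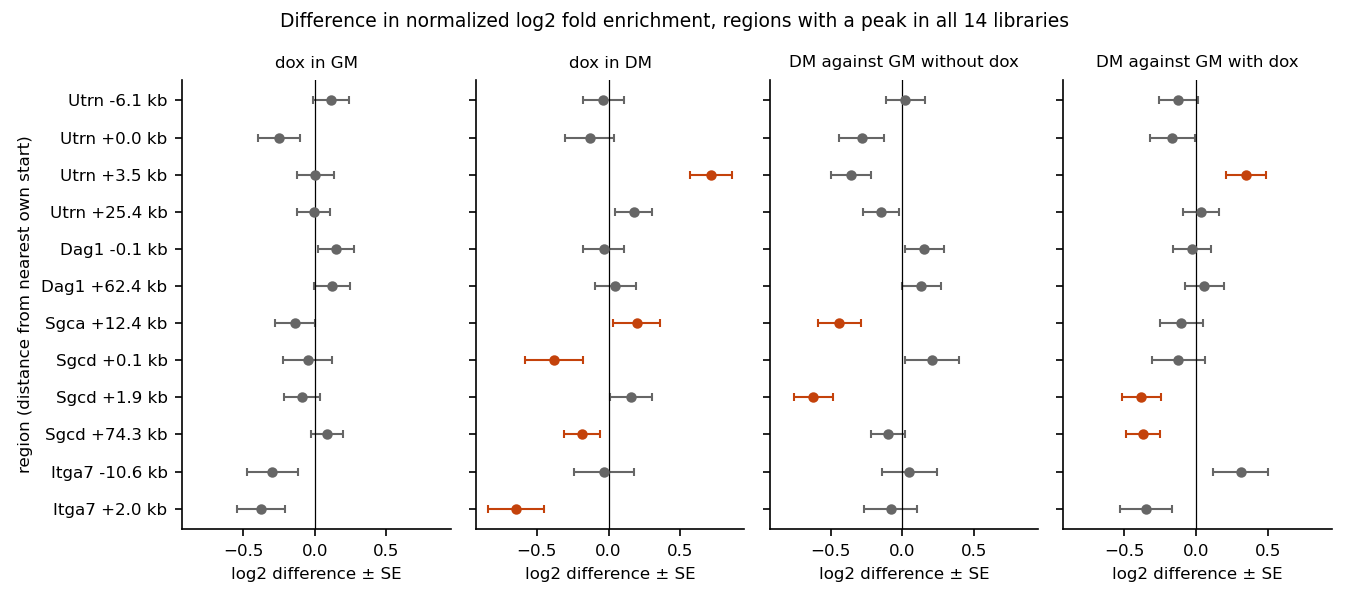
Log2 difference in quantile-normalized fold enrichment (x axis, first group minus second, with its limma SE) for the 12 member regions with a peak in all 14 libraries (y axis, gene and distance of the summit from the nearest own start), one panel per comparison. Orange points are regions whose groups do not overlap, among them Utrn at +3.5 kb with 0.71 for doxycycline in DM and Sgcd at +1.9 kb with -0.62 for DM against GM without doxycycline.

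The 3 motifs were also counted under the peaks of these genes and of all genes. Within 100 bp on each side of the summit, CAGCTG was present in 20 of 92 member regions (21.7%) and in 19.8% of all 80290 regions. TGANTCA was present in 37 of 92 (40.2%, against 31.7%) and CATTCC in 17 of 92 (18.5%, against 17.7%). In equal-length lists the motifs were present in 5, 11 and 9 of 30 member regions, and in 18.7%, 33.8% and 16.9% of all regions. None of these shares was tested.

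The other genes of the pathway gave 1 separated gene. The list held 31 genes, all found in the annotation: further sarcoglycans, syntrophins and dystrobrevins, laminin chains and laminin-binding integrins, enzymes that glycosylate dystroglycan, and caveolar and membrane-repair proteins. In equal-length lists, Sgce, which encodes epsilon-sarcoglycan, had a mean of 1.33 peaks in DM no dox and 0.0 in GM no dox (exact permutation p = 0.0571, adjusted p = 1), and it was 1 of 28 listed genes with a peak, against 2.42% of all genes. None of the 28 separated in the other 3 comparisons. In full lists 7 of 30 listed genes had more peaks in every DM +dox than in any DM no dox library and 0 fewer, beside the 19.7% of all genes, and 0 of 31 separated in each of the other comparisons.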

How the data were processed

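Peak lists of 16 ATAC-seq libraries were analysed. Per the study's methods, the authors ran nf-core/atacseq on mm10 with a blacklist and called peaks with MACS2 in each library separately. The deposited lists hold a score, the fold enrichment at the summit (a ratio to local background), and -log10 of the p-value and of the q-value. They hold no read counts, and the columns differ between libraries in depth. Depth was recovered as the background that makes every summit pile-up a whole number (within 0.05, in 100.0% of peaks with -log10 p under 30). This precision covers counting only.

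Overlapping peaks were merged by 1 bp or more. Strength was tested with limma 3.58.1 in R 4.3.3 on quantile-normalized log2 fold enrichment of each library's strongest peak, in regions with a peak in all 14 libraries, with Benjamini-Hochberg adjustment over all regions. Peaks per window were compared by two-sided exact permutation tests adjusted over all coding genes with a peak (Python 3.11.15, SciPy 1.17.1). Alternatives changed normalization, measure, list length, window, libraries and replicates. Scripts were tested on simulated data. Same-numbered libraries deviated together from their group means (correlation 0.106 to 0.465 over 11046 regions in 13 of 13 pairs). For the replicate block the numbers were taken to pair libraries, from the data and not from the labels. Differently numbered libraries were not correlated, so these values have no baseline and the pairing was not tested.

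All 9 genes are described. Named regions are those called, those listed throughout one group and nowhere in the other in equal-length lists, and those at an own start site; named windows are those whose groups do not overlap in equal-length lists. The Utrn, Itga7, Sgca and Dag1 regions beyond these were chosen after their values were seen. The members and lists were chosen with earlier results of these data known. Motifs were searched in GRCm38.p6, where no peak ran past a chromosome end. The sequence of the Sgcd intron region is not reported here. Ranks were also given as a percent of list length, a measure added after the data were seen.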

Additional observations from a re-analysis of the deposited data

Results flagged for a closer look

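Among 28 groups of 4 libraries checked for a value far from the others, 2 were flagged, where chance flags about 1 in 20. At the Sgcd start site GM no dox replicate 1, the library with the shortest list, had a normalized log2 fold enrichment of 3.86, against 3.05, 3.03 and 3.03 in the 3 others. In the Itga7 intron region 2.0 kb downstream of an Itga7 start, GM +dox replicate 2 had 2.42, against 2.79, 2.79 and 2.86. The DM groups of 3 were not checked. The 2 libraries left out had 16 (DM +dox) and 2 (DM no dox) peaks in the 9 windows, all of which overlapped a region of the 14 others.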

How the results depend on the processing

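The count of member regions with changed strength was 0 in every setting and comparison except for DM against GM without doxycycline, where it was 1 (the Sgcd intron region at 1.9 kb) with median centring (adjusted p = 0.0442), with -log10 p as the measure (0.0335) and with the replicate block (0.0288). Leaving out each of 14 libraries gave 0 each time, with an adjusted p of 0.0532 to 0.197 for this region. Over all regions the same comparison called 35 with the settings reported, 48 with median centring, 121 with -log10 p, 151 with the block, 18 with a peak asked in 10 of 14 libraries, 2 in equal-length lists, 2 with DM +dox replicate 1 added, and 0 with all 16 libraries or with replicates 3 and 4 only. For DM against GM with doxycycline the counts in the same order were 8, 36, 114, 33, 82, 0, 2, 0 and 0, and for doxycycline in DM the calls rose from 0 to 8 with median centring and 7 with the block.

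Member regions listed throughout one group and nowhere in the other numbered 0, 2, 1 and 2 (doxycycline in GM, in DM, DM against GM without it, and with it). Full lists gave 0, 11, 0 and 1, ranking by fold enrichment 0, 3, 0 and 1, lists of 7355 peaks 0, 0, 2 and 0, a 50 kb flank 2 without doxycycline, all 16 libraries 0 in DM and 1 with doxycycline, and replicates 3 and 4 only 3, 6 and 4 in the first 3. Leaving out libraries gave 0 to 1, 2 to 5, 1 to 3 and 2 to 3. Apart from full lists, the share over all regions was not computed for these alternatives. The count of 5 came without DM no dox replicate 2, that of 3 without doxycycline also without it and 2 without DM no dox replicate 3, and a count of 1 in GM without GM no dox replicate 2 or 3 or GM +dox replicate 2 or 3.

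The difference in peaks over the 9 windows was 1.75, -0.667, 0.417 and -2.0. In full lists it was 18.8, 25.0, -0.167 and 6.08, in lists of 7355 peaks -0.5, 2.33, -3.0 and -0.167. Ranking by fold enrichment gave -2.33 in DM and 2.0 without doxycycline, flanks of 0 and 50 kb -2.33 and 0.333 in DM, and 50 kb -0.583 without doxycycline. All 16 libraries gave 3.0 in DM and -3.25 without doxycycline, and replicates 3 and 4 only -1.5 in DM. The replicate block gave 1.75, -0.667, 0.0 and -1.33 and changed no call other than that of Sgcd at 1.9 kb. Leaving out libraries gave 1.08 to 2.75, -1.17 to -0.167, 0.0 to 1.0 and -3.0 to -1.33. The Sgcd window difference, -2.67 with doxycycline in DM and -3.17 for DM against GM with it, became 2.67 and 0.5 in full lists. With all 16 libraries the latter was -3.0 (exact permutation p = 0.0286, unadjusted), and leaving out a library kept it between -3.5 and -3.0. The causes were not tested. Lists without reads cannot give differences below the peak threshold, and with 3 libraries in each DM group no permutation p of a comparison that uses one can pass 0.05 among the 14 libraries.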
